A study of Mus musculus with 10 samples.

Results

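Kv4 channels are voltage-gated potassium channels of the A-type, and the 9 genes described here encode their pore-forming subunits (Kcnd1, Kcnd2 and Kcnd3) and their auxiliary subunits (Kcnip1 to Kcnip4, Dpp6 and Dpp10). The genes were taken by name from 2 deposited expression tables of mouse somatosensory cortex, and all 9 were found in both. They are 9 of 23283 named genes in the 2.5-month table and 9 of 54427 in the 3-month table. The set was selected on the log2 changes of 1 member, Kcnip2, which differed between the 2 models studied, so the values of Kcnip2 in both models are given as a description without a test. The other 8 members were tested.

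The study deleted Nsd1, which encodes a histone methyltransferase that places dimethyl marks on lysine 36 of histone H3. In the Nex model, at 2.5 months of age, 3 libraries had the genotype Nsd1Nex-cKO (Nex_cKO) and 3 were controls (Nex_Ctrl), of which replicates 1 and 2 were labelled Nsd1fl/+ and replicate 3 Nsd1fl/fl. In the Camk2a model, at 3 months of age, 2 libraries had the genotype Nsd1Camk2a-cKO (Camk2a_cKO) and 2 were Nsd1fl/+ controls (Camk2a_Ctrl). Every control therefore carried at least 1 floxed Nsd1 allele, and whether the controls carried Cre, or whether each replicate was a separate mouse, is not given in the sources used here, so the p-values measure the spread between these libraries. Cre under the Nex (Neurod6) gene is known to act in newly formed excitatory neurons of the embryonic forebrain and Cre under Camk2a in excitatory neurons after birth, so interneurons, glia and vessels of either cortex keep Nsd1. Because bulk tissue was sequenced, fewer cells of a type and less RNA per cell cannot be told apart.

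A Kv4 channel is a tetramer of Kcnd subunits that opens below the spike threshold and inactivates within a fraction of a second. It delays the first spike and limits how far spikes travel back into dendrites. Kcnip proteins are cytoplasmic calcium-binding proteins that dock on the channel's amino terminus, bring it to the cell surface and slow its inactivation. Dpp6 and Dpp10 are single-pass membrane proteins of the dipeptidyl peptidase family without peptidase activity that speed the channel's gating. In cortical pyramidal neurons these 3 kinds of subunit form 1 complex.

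The starts of 3 members are shown: Kcnip2, the member whose change differed between the models, and the pore subunits Kcnd2 and Kcnd3. For these 2 pore subunits the Nex_cKO and Nex_Ctrl libraries did not overlap, as for 30.4% of all genes, and neither passed the test. Each sequence is the 250 bases before a RefSeq transcription start (GRCm38.p6), read 5′ to 3′ on the gene's strand, with every CpG dinucleotide in capitals. Kcnip2 lies on the minus strand and its window is chr19:45816064-45816313, Kcnd2 on the plus strand with chr6:21215096-21215345, and Kcnd3 on the plus strand with chr3:105451640-105451889.
Kcnip2: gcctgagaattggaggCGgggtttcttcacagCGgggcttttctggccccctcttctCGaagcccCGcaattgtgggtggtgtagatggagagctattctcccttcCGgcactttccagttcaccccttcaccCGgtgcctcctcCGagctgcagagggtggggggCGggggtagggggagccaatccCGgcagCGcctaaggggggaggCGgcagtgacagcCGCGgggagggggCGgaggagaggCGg
Kcnd2: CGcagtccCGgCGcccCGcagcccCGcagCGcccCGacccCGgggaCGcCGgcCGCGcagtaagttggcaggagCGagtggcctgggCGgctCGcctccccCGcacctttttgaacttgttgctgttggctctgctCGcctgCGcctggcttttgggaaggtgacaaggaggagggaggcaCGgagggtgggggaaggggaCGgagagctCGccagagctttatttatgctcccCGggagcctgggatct
Kcnd3: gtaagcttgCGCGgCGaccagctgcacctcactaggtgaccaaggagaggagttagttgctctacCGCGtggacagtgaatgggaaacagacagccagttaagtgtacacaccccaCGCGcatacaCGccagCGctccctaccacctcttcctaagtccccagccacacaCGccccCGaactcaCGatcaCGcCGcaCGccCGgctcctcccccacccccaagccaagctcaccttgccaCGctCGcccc
All 3 windows held more CpG than the median promoter, with 15 sites before Kcnip2, 22 before Kcnd2 and 18 before Kcnd3, against a median of 6 over 32851 mouse promoter windows of the same length. Kcnip2 held more CpG than 72.7% of those windows. The RefSeq table held 15 starts for 8 of the 9 members, with 3 each for Kcnip1, Kcnip3 and Dpp6, and the alternative starts of Kcnip3 ranged from 2 to 23 CpG. The GC box GGGCGG, searched on both strands, occurred 2 times before Kcnip2, 1 time before Kcnd2 and not before Kcnd3, and at least once in 32.7% of all windows. The palindromic cyclic AMP response element TGACGTCA was in none of the 15 windows and in 1.55% of all windows. A match describes letters, not binding.

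Levels were deposited as FPKM (fragments per kilobase of transcript, divided by each library's mapped fragments), a scale on which genes of different length can be set side by side within a table. The 2 tables used different gene models, so levels are compared within a table only. In the Nex_Ctrl libraries Kcnip2 was the most abundant member at 90.8 ± 2.95 FPKM (SD, n = 3), followed by Kcnip3 at 46.5 and Dpp6 at 43.3, whose ranges overlapped. Dpp10 (37.5), Kcnd2 (26.0), Kcnip4 (20.8), Kcnip1 (8.80), Kcnd3 (7.33) and Kcnd1 (2.82 FPKM) came next, and the libraries' ranges of neighbours in this order did not overlap. Kcnd2 was thus the main pore transcript and Kcnip2 the main Kcnip transcript of this cortex. The Camk2a_Ctrl libraries had the same leading subunits, with Kcnip2 at 38.2 ± 2.18 FPKM (SD, n = 2), Kcnip3 at 29.7, Kcnd2 at 26.5, Dpp6 at 16.9, Dpp10 at 14.6, Kcnip4 at 14.4, Kcnd3 at 6.96, Kcnip1 at 3.37 and Kcnd1 at 2.06 FPKM. There only Dpp10 and Kcnip4 overlapped as neighbours. In the Nex_cKO libraries the order at the top was not resolved: Kcnip3 (49.2), Kcnip2 (47.1) and Dpp6 (45.2 FPKM) overlapped. In the Camk2a_cKO libraries Kcnip2 remained first, at 47.8 FPKM, above the range of Kcnip3.

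**Figure D1:**
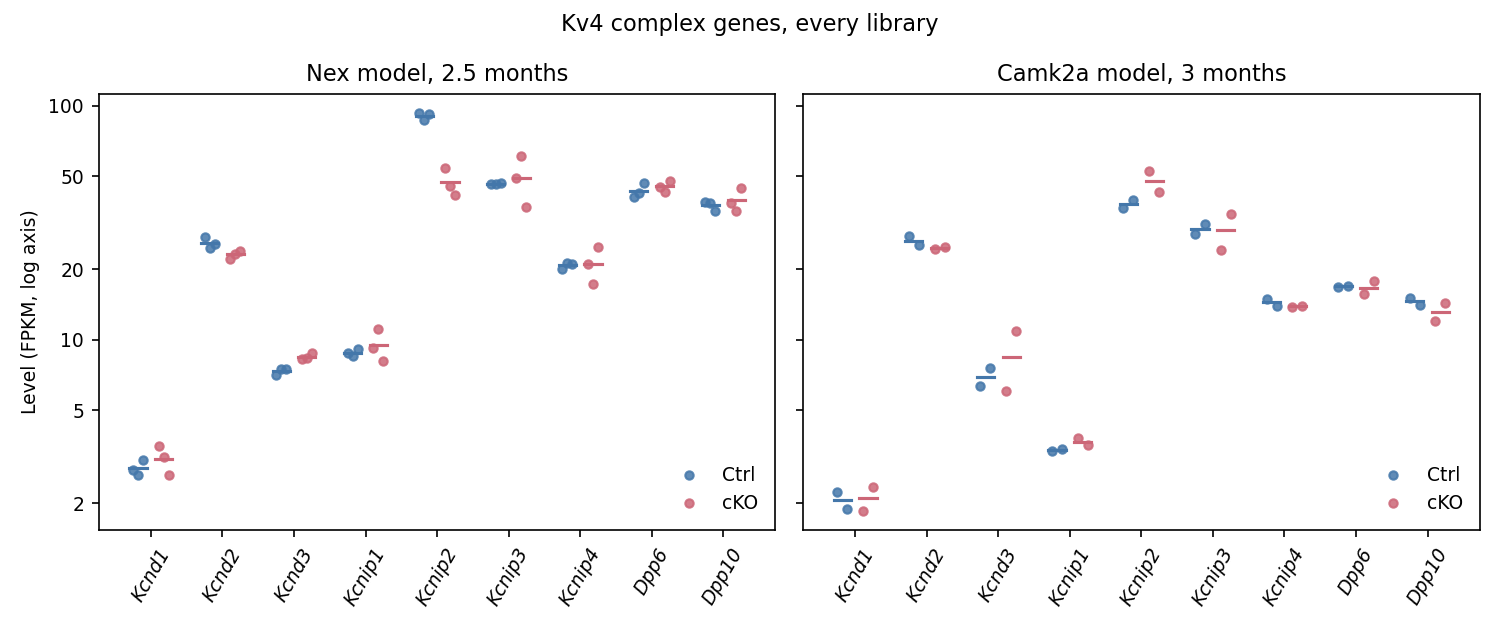
FPKM of the 9 members on a log axis, with 1 point per library and a short line at each group mean, for control and cKO libraries, in 1 panel for the Nex model and 1 for the Camk2a model. Kcnip2 sits between 87.5 and 92.9 in the Nex_Ctrl libraries and between 41.5 and 54.4 in the Nex_cKO libraries, while 6 of the other 8 members overlap between those groups.

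Among the 10 libraries, Nex_cKO replicate 3 stood apart. It had Ddx3y, a Y-linked gene, at 16.2 FPKM and Xist at 0.0035, where the other 5 Nex libraries had Xist at 33.6 to 46.5 and Ddx3y at 0, and 41.55% of its summed FPKM fell in rows without a gene name against 2.33% to 19.41% in those 5. In the 3-month table Ddx3y was at 11.0 to 12.4 FPKM and Xist below 0.01 in all 4 libraries, the pattern of Nex_cKO replicate 3. Age, Cre driver and table differ between the models, as does sex-linked expression except in that replicate, and these cannot be told apart. Within the Nex model this pattern occurred among the knockouts only, so sex-linked expression is partly mixed with genotype there. Reads recovered from the 3-month table summed to 16901717 to 20074933 per library, whereas the depth of the 2.5-month libraries is unknown. Slc17a7, the vesicular glutamate transporter of cortical excitatory neurons, was at 464 to 589 FPKM in the Nex table and 248 to 297 in the Camk2a table. Nsd1 itself was listed in the Nex table only as a locus joined with Prelid1, at 129.9, 125.1 and 141.4 FPKM in controls and 90.98, 118.1 and 105.6 in Nex_cKO (log2 change -0.34, limma adjusted p = 0.0863), and at 5.605 and 8.873 in Camk2a_Ctrl and 4.309 and 4.987 in Camk2a_cKO (log2 change -0.52, limma adjusted p = 0.685). The knockout libraries lay below all of their controls in both models, without passing the test.

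The first comparison asked whether the pore-forming subunits differed between Nsd1 knockout and control cortex. None of the 3 passed the test in either model. Kcnd2, the main dendritic pore subunit of pyramidal neurons (chromosome 6, 21215503 to 21729805, GRCm38), was at 27.4, 24.8 and 25.7 FPKM in Nex_Ctrl and 22.2, 23.4 and 24.0 in Nex_cKO. Every knockout library lay below every control, and the log2 change was -0.16 (SE 0.07, 95% confidence interval -0.32 to 0.004, limma adjusted p = 0.224). The Camk2a libraries gave Kcnd2 at 27.8 and 25.3 FPKM in controls and 24.5 and 25.005 in knockouts, again without overlap, with a log2 change of -0.10 (SE 0.10, interval -0.33 to 0.14, limma adjusted p = 0.899). The 2 values differed by -0.06 on the log2 scale, with an interval of -0.31 to 0.18.

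Kcnd3, a pore subunit of both interneurons and pyramidal neurons (chromosome 3, 105452330 to 105674002), was at 7.05, 7.46 and 7.48 FPKM in Nex_Ctrl and 8.26, 8.33 and 8.79 in Nex_cKO. Every knockout library lay above every control, and the log2 change of 0.18 (SE 0.08, interval 0.01 to 0.36) had an unadjusted p = 0.0442 and an adjusted p = 0.198 in limma. For the Camk2a libraries the 2 controls, at 6.34 and 7.58 FPKM, lay between the 2 knockouts, at 6.05 and 10.9. The spread of those 2 knockout libraries left the log2 change at 0.21 with an interval of -0.39 to 0.80, and leaving out Camk2a_cKO replicate 1 or 2 gave 0.58 or -0.17. Kcnd3 shares exonic bases with Kcnd3os on the opposite strand, and without strand in the counting, which is not given in the sources used here, their reads cannot be told apart. Kcnd1, the rarest pore subunit (chromosome X, 7822289 to 7838280), was at 2.64 to 3.05 FPKM in Nex_Ctrl and 2.64 to 3.50 in Nex_cKO, and at 1.89 to 2.23 in Camk2a_Ctrl and 1.86 to 2.35 in Camk2a_cKO, where it rested on 175 to 209 reads per library. Its groups overlapped in both models.

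Summed over the 3 pore genes, the level was 34.9 to 37.2 FPKM in Nex_Ctrl and 34.0 to 35.4 in Nex_cKO. Within that sum the share of Kcnd3 was 18.9% to 21.4% in controls and 23.9% to 24.8% in knockouts, and the share of Kcnd2 was 71.9% ± 1.51 (SD, n = 3) and 66.7% ± 1.20 (SD, n = 3). The pore sum and the share of Kcnd1 (7.46% to 8.43% and 7.46% to 10.3%) overlapped between groups, and the shares of Kcnd2 and Kcnd3 did not. The sum in the Camk2a model was 35.6 ± 1.11 FPKM (SD, n = 2) in controls and 35.3 ± 4.11 (SD, n = 2) in knockouts. There the shares overlapped, with Kcnd3 at 17.4% and 21.8% in controls and 18.7% and 28.5% in knockouts, and Kcnd2 at 76.4% and 72.8% and at 75.6% and 65.4%.

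Among the Kcnip genes, the member for which the set was chosen stood out in level. Kcnip2 encodes KChIP2, the Kcnip protein best known for setting A-type current in heart and forebrain. It was at 92.9, 87.5 and 92.1 FPKM in Nex_Ctrl replicates 1 to 3 and at 54.4, 45.5 and 41.5 in Nex_cKO replicates 1 to 3. All 3 knockout libraries lay well below all 3 controls, a difference of -48.1% in the mean, with a log2 change of -0.94 (SE 0.10). At 3 months, in the Camk2a model, the same gene was at 36.7 and 39.8 FPKM in controls and 52.7 and 43.0 in knockouts. Both knockout libraries lay above both controls, 25.2% higher in the mean, with a log2 change of 0.31 (SE 0.12). These 4 values rested on 2194, 2733, 3263 and 2511 recovered reads, and the counting intervals of the knockout nearest the controls, 41.3 to 44.7 FPKM, and of the control nearest the knockouts, 38.3 to 41.3, met without a gap.

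The change in the Nex model minus that in the Camk2a model was -1.25 for Kcnip2 (SE 0.17). Of 12528 genes tested in the Nex model, 36 had a more negative log2 change than Kcnip2. Of 12919 tested in the Camk2a model, 762 had a more positive one, and of 10409 tested in both, 13 had a more negative difference. For background, 8.53% of genes passed the adjusted threshold of 0.05 in the Nex model, and 0% did so in the Camk2a model. The difference passed for 0.528% of genes, 0.375% with a higher and 0.154% with a lower change in the Nex model. These values chose the gene, and nothing further is read from them. Leaving out 1 library at a time gave -1.05 to -0.85 in the Nex model and 0.17 to 0.46 in the Camk2a model. The Nex value nearest 0, -0.85, was that without Nex_cKO replicate 3. These refits reuse the libraries that chose the gene and are a description.

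**Figure D2:**
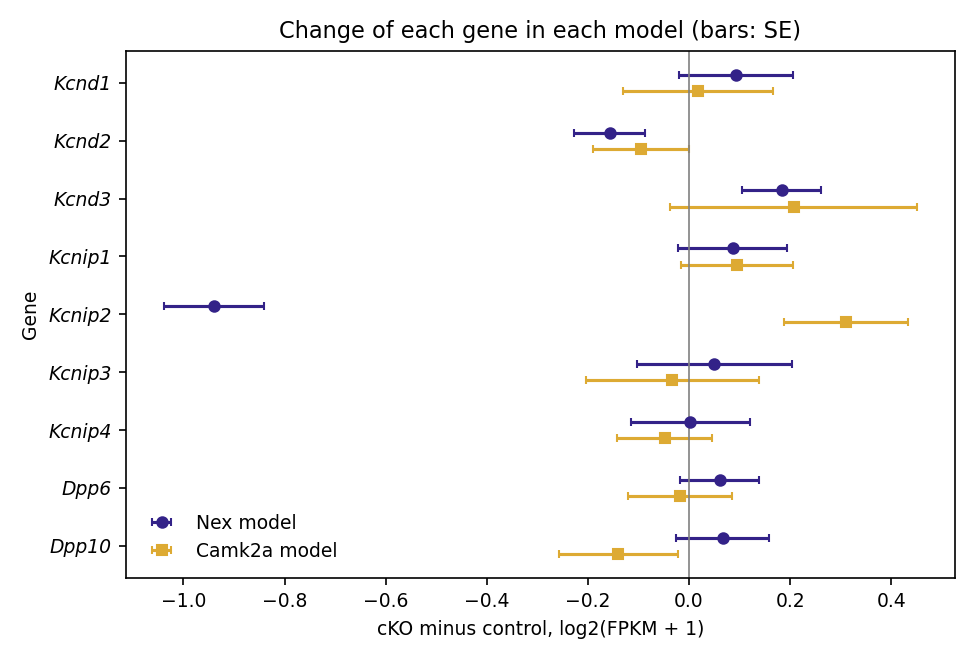
log2 change of each member (cKO minus control, on log2(FPKM + 1)) in the Nex model (circles) and the Camk2a model (squares), with bars of 1 SE from limma. Kcnip2 lies at -0.94 and 0.31, and the other 8 members lie between -0.16 and 0.21.

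Kcnip3, Kcnip4 and Kcnip1 did not pass the test in either model. Kcnip3 encodes KChIP3, also known as calsenilin and as the transcriptional repressor DREAM (chromosome 2, 127456498 to 127522094). It was at 46.4, 46.3 and 46.8 FPKM in Nex_Ctrl and 49.4, 61.3 and 36.9 in Nex_cKO, so the knockout libraries spread to both sides of tightly placed controls (log2 change 0.05, interval -0.30 to 0.40, limma adjusted p = 0.88). Its Camk2a levels were 28.3 and 31.1 FPKM in controls and 24.2 and 34.6 in knockouts, again on both sides. Camk2a_cKO replicate 1 was the higher of the 2 knockout libraries in Kcnip2 and the lower in Kcnip3.

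Kcnip4, which encodes a Kcnip protein that suppresses fast inactivation in some splice forms (chromosome 5, 48389502 to 49524907), was at 20.1, 21.3 and 21.0 FPKM in Nex_Ctrl and 21.0, 17.3 and 24.9 in Nex_cKO. The libraries of the 2 groups overlapped (log2 change 0.00, interval -0.27 to 0.27, limma adjusted p = 0.992). Its Camk2a levels were 14.9 and 13.99 FPKM in controls and 13.9 and 13.95 in knockouts, which did not overlap but were nearly touching. Kcnip4 shares exonic bases with 5730480H06Rik and Gm20700 on the opposite strand. Kcnip1, a Kcnip gene of interneurons as well as pyramidal neurons (chromosome 11, 33629339 to 33993152), was at 8.80, 8.51 and 9.09 FPKM in Nex_Ctrl and 9.20, 11.1 and 8.13 in Nex_cKO (limma adjusted p = 0.684). Its levels in the Camk2a model were 3.33 and 3.41 FPKM in controls and 3.80 and 3.54 in knockouts, higher in both knockout libraries, on 355 to 419 reads per library (log2 change 0.10, interval -0.17 to 0.36, limma adjusted p = 0.91).

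Taking the Kcnip genes as a pool, their summed level was 166.9 ± 2.94 FPKM (SD, n = 3) in Nex_Ctrl and 126.8 ± 13.3 (SD, n = 3) in Nex_cKO. Without Kcnip2 the sum was 76.1 ± 0.816 and 79.7 ± 9.82 FPKM, so the gap between the groups lay in Kcnip2. Kcnip2 made up 55.3%, 53.5% and 54.5% of the pool in Nex_Ctrl and 40.6%, 33.7% and 37.3% in Nex_cKO. The ratio of Kcnip2 to Kcnip3 was 1.89 to 2.01 in controls and 0.743 to 1.13 in knockouts. The Kcnip sum per unit of the Kcnd sum was 4.52 to 4.69 and 3.15 to 3.94. Camk2a libraries had Kcnip2 at 44.1% and 45.1% of the pool in controls and 55.7% and 45.2% in knockouts, so 1 of the 2 knockout libraries was close to the controls. All these sums hold Kcnip2 and are descriptions.

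**Figure D3:**
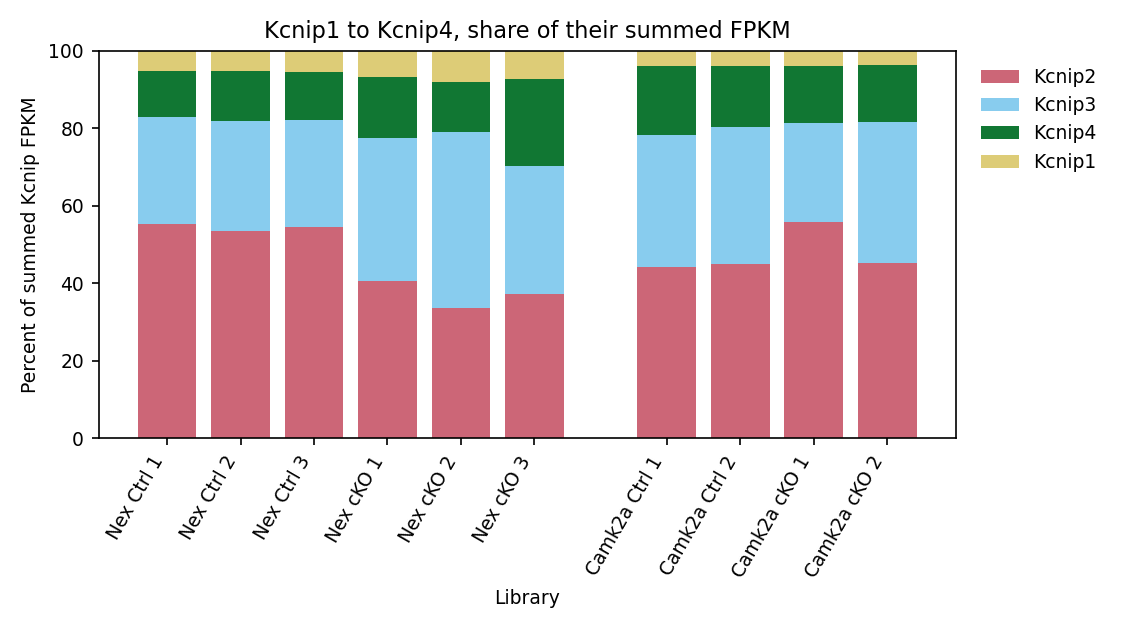
Share of each Kcnip gene in the summed Kcnip FPKM of every library, as stacked bars in percent. Kcnip2, the lowest segment, takes 53.5% to 55.3% in the 3 Nex_Ctrl bars, 33.7% to 40.6% in the 3 Nex_cKO bars and 44.1% to 55.7% across the 4 Camk2a bars.

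The Dpp subunits did not pass the test in either model. Dpp6, the main Dpp partner of Kv4 in hippocampal and cortical pyramidal neurons (chromosome 5, 26817203 to 27727505), was at 41.0, 42.3 and 46.8 FPKM in Nex_Ctrl and 45.2, 42.8 and 47.7 in Nex_cKO (log2 change 0.06, interval -0.12 to 0.24, limma adjusted p = 0.69). The 3-month libraries had Dpp6 at 16.8 and 17.0 FPKM in controls and 15.6 and 17.8 in knockouts. Dpp6 libraries overlapped between groups in both models. The 2.5-month table held a second Dpp6 row, at 4.22 FPKM in Nex_Ctrl replicate 1, at 3.12 in Nex_cKO replicate 3 and below 0.04 in the other 4 libraries, and the row of higher mean was used. Dpp10 (chromosome 1, 123321471 to 124045559) was at 38.7, 38.4 and 35.5 FPKM in Nex_Ctrl and 38.4, 35.5 and 44.6 in Nex_cKO (log2 change 0.07, interval -0.14 to 0.27, limma adjusted p = 0.709). The 3-month libraries had Dpp10 at 15.1 and 14.1 FPKM in controls and 11.97 and 14.4 in knockouts (log2 change -0.14, interval -0.43 to 0.15, limma adjusted p = 0.872). The Dpp sum per unit of the Kcnd sum was 2.24 ± 0.0911 (SD, n = 3) in Nex_Ctrl and 2.44 ± 0.182 (SD, n = 3) in Nex_cKO, which overlapped. Its Camk2a values were 0.877 and 0.894 in controls and 0.851 and 0.842 in knockouts, lower in both knockout libraries.

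By count, 0 of the 8 tested members passed the adjusted threshold in the Nex model, where 8.53% of 12528 genes did. Kcnd3 alone had an unadjusted p under 0.05 there, as did 23.5% of all genes. The count was also 0 in the Camk2a model and in the difference between the models, where 0% and 0.528% of all genes passed. None of the 8 had an unadjusted p under 0.05 in those 2 comparisons, against 6.96% and 13.3% of all genes. limma voom on the recovered reads of the Camk2a model also called 0 of the 8. The groups did not overlap for 2 of the 8 in the Nex model, Kcnd2 and Kcnd3, where 30.4% of all genes did not overlap. They did not overlap for 3 of the 8 in the Camk2a model, Kcnip1, Kcnip4 and Kcnd2, where the background was 37.3%. The 8 had a median log2 change of 0.06 (Nex) and -0.03 (Camk2a), beside -0.04 and -0.01 over all genes. A call missed here does not show that a member stayed the same: the intervals of the difference between the models ran from -0.55 to 0.50 for Kcnd3 and from -0.48 to 0.65 for Kcnip3.

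The second question was whether other genes of Kv4 regulation moved in the same libraries. A list of 46 regulators and partners was used, holding other potassium channel subunits, calcium sensors, T-type calcium channels that couple to Kcnip3, scaffolds, kinases and phosphatases, the catalytic relatives of Dpp6, and genes known as Kcnip3 (DREAM) targets. In each model 39 were tested. In the Nex model 3 rose and 5 fell at the adjusted threshold, where 4.47% of all genes rose and 4.06% fell. At an unadjusted p under 0.05 in limma there were 18 of 39, against 23.5% of all genes. The list was chosen with earlier results of these data known, and the part of that choice in these counts was not tested. Over the list the median log2 change was -0.10, and over all genes -0.04. The split between directions moved with scaling, and quantile normalization gave 4 rises and 3 falls. In the Camk2a model 0 of 39 passed the threshold by limma or by limma voom, with 4 of 39 at an unadjusted p under 0.05 in limma, against 6.96% of all genes.

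Prkca encodes protein kinase C alpha, one of the kinases that phosphorylate Kv4 channels. It was at 26.4, 28.0 and 27.9 FPKM in Nex_Ctrl and 16.95, 16.4 and 17.5 in Nex_cKO, a fall of 0.66 on the log2 scale (log2 change -0.66, SE 0.07, limma adjusted p = 0.0004). The groups were far apart relative to the spread within each. Prkca was in the Camk2a model at 31.3 and 34.7 FPKM in controls and 31.6 and 37.6 in knockouts (log2 change 0.06, limma adjusted p = 0.948). The difference between the 2 changes was -0.73 (SE 0.13, limma adjusted p = 0.0342), the 1 call among 37 list genes tested in both models, where 0.528% of all genes were called. Leaving out any 1 of Nex_Ctrl replicates 1, 2 and 3, Nex_cKO replicate 1, Camk2a_Ctrl replicate 1 or Camk2a_cKO replicate 2 ended that call, with an adjusted p of up to 0.183, while the fall in the Nex model passed without any single library.

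Cacna1i encodes the T-type calcium channel Cav3.3. It fell from 19.9 ± 1.08 to 14.03 ± 0.824 FPKM in the Nex model (SD, n = 3 each, log2 change -0.48, limma adjusted p = 0.00563), with 13.2 to 14.8 in knockouts and 19.1 to 21.2 in controls. The Camk2a libraries had Cacna1i at 21.5 and 21.8 FPKM in controls and 17.2 and 20.3 in knockouts (log2 change -0.20, limma adjusted p = 0.793). The knockout libraries were thus below the controls in both models. The other listed T-type genes, Cacna1g and Cacna1h, did not pass in the Nex model (log2 change -0.13 and -0.39, limma adjusted p = 0.661 and 0.102). Kcnab2, which encodes the cytoplasmic beta subunit Kvbeta2, fell from 156 ± 5.72 to 124 ± 6.91 FPKM in the Nex model (limma adjusted p = 0.0296). Kcns1, which encodes the modulatory subunit Kv9.1, fell from 24.5 ± 2.92 to 15.5 ± 4.12 FPKM (limma adjusted p = 0.0486).

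Of the Dpp6 relatives that keep peptidase activity, Dpp4 and Fap rose in the Nex model and Dpp9 fell. Dpp7 and Dpp8 did not pass there (log2 change -0.23 and -0.06, limma adjusted p = 0.189 and 0.651). Dpp4, a cell-surface peptidase, was at 1.56, 1.37 and 1.60 FPKM in Nex_Ctrl and 4.16, 2.94 and 3.78 in Nex_cKO (log2 change 0.87, SE 0.13, limma adjusted p = 0.00307). Fap, fibroblast activation protein, was at 0.835, 1.07 and 1.49 FPKM in Nex_Ctrl and 2.58, 2.84 and 3.34 in Nex_cKO (log2 change 0.88, SE 0.14, limma adjusted p = 0.00561). Both are low in cortex, and with 1 added to each value the log2 changes understate the fold. The 2 genes lie near each other on chromosome 2, Dpp4 at 62330073 to 62412231 and Fap at 62500943 to 62574075 (GRCm38), 88.7 kb apart. Between them are 3 annotated genes, none of which reached the level needed for a test in the 2.5-month table. Neither Dpp4 nor Fap was expressed enough to test in the Camk2a model. Dpp4 was at 0.819 and 0.849 FPKM in controls and 1.10 and 0.875 in knockouts, and Fap at 0.821 and 0.679 in controls and 1.14 and 0.987 in knockouts, so both knockout libraries were above both controls there too. Dpp9, a cytoplasmic peptidase, fell from 28.6 ± 2.33 to 20.9 ± 2.24 FPKM in the Nex model (SD, n = 3 each, log2 change -0.44, limma adjusted p = 0.0244).

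Pdyn encodes prodynorphin, whose gene is a known target of the repressor form of Kcnip3. It rose in the Nex model, from 8.22, 10.9 and 8.62 FPKM in controls to 15.3, 15.5 and 14.96 in knockouts (log2 change 0.67, SE 0.10, limma adjusted p = 0.00442). All 3 knockout libraries lay above all 3 controls. The other listed Kcnip3 targets, Fos, Bdnf and Slc8a3, did not pass in the Nex model. Their log2 changes were -0.07, -0.08 and -0.04 (limma adjusted p = 0.949, 0.696 and 0.884). Pdyn was in the Camk2a model at 8.88 and 8.37 FPKM in controls and 10.3 and 9.52 in knockouts (log2 change 0.18, limma adjusted p = 0.803), higher in both knockout libraries. Prkca, Cacna1i, Dpp4, Fap and Pdyn passed the threshold in the Nex model without any single library. Kcns1 lost its call without any 1 library other than Nex_cKO replicate 2 (limma adjusted p of up to 0.173) and under 7 of 8 other settings (0.052 to 0.0854). Kcnab2 lost its call without any 1 control or Nex_cKO replicate 1 (up to 0.134). It also did so with quantile normalization (0.0843) or the replicate number as a block (0.106). Dpp9 lost its call without Nex_Ctrl replicate 1, Nex_Ctrl replicate 3 or Nex_cKO replicate 1 (up to 0.107), and with that block (0.065).

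**Figure D4:**
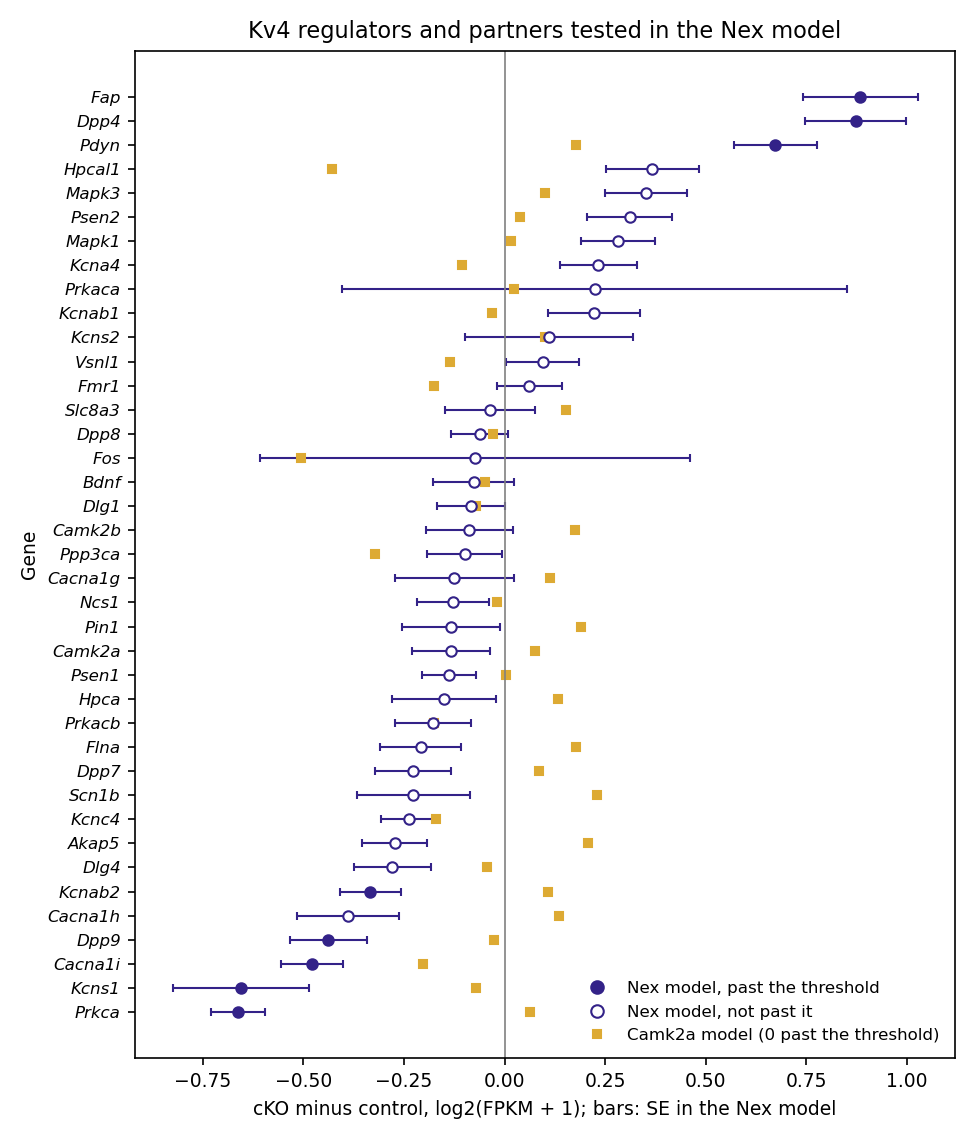
log2 change (cKO minus control, on log2(FPKM + 1)) of the 39 listed regulators and partners tested in the Nex model, as circles with bars of 1 SE, filled where the adjusted threshold was passed, with squares for the Camk2a model where the gene was tested. Fap, Dpp4 and Pdyn are the filled circles above 0 and Prkca, Kcns1, Cacna1i, Dpp9 and Kcnab2 those below 0, and Dpp4 and Fap have no square.

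The third question was whether the genes beside Kcnip2 on chromosome 19 carried the same pattern. Kcnip2 spans positions 45791839 to 45816061 (GRCm38, minus strand, 24.2 kb). The 3 nearest genes on either side that were tested in both tables were Fbxw4, Npm3 and Mgea5 on one side and Armh3 (named 9130011E15Rik in the 2.5-month table), Hps6 and Ldb1 on the other. Mgea5, which encodes the enzyme that removes O-linked N-acetylglucosamine from proteins, was at 52.6 FPKM in Nex_Ctrl and 53.8 in Nex_cKO (log2 change 0.03, limma adjusted p = 0.824). Armh3, on the same strand and with its 3′ end nearest to the start of Kcnip2, was at 5.24 and 5.51 FPKM (log2 change 0.07, limma adjusted p = 0.799). Ldb1, which encodes a cofactor of LIM-domain transcription factors, was the 1 neighbour of 6 that passed, falling from 42.3 to 34.8 FPKM (log2 change -0.27, limma adjusted p = 0.0462), where 4.06% of all genes fell. It lost that call in 5 of the 6 fits that left out 1 library, all but the one without Nex_cKO replicate 3, with an adjusted p of up to 0.177. In the Camk2a model 0 of the 6 passed, where 0% of all genes did, and the changes ran from -0.26 (Npm3) to 0.21 (Hps6). Ldb1 alone of the 6 had the directions of Kcnip2, with 0.13 in the Camk2a model (limma adjusted p = 0.868). Its difference between the models was -0.41 and did not pass (limma adjusted p = 0.174). The nearest neighbours on both sides, Mgea5 and Armh3, thus had Nex changes of 0.03 and 0.07 beside -0.94 for Kcnip2.

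**Figure D5:**
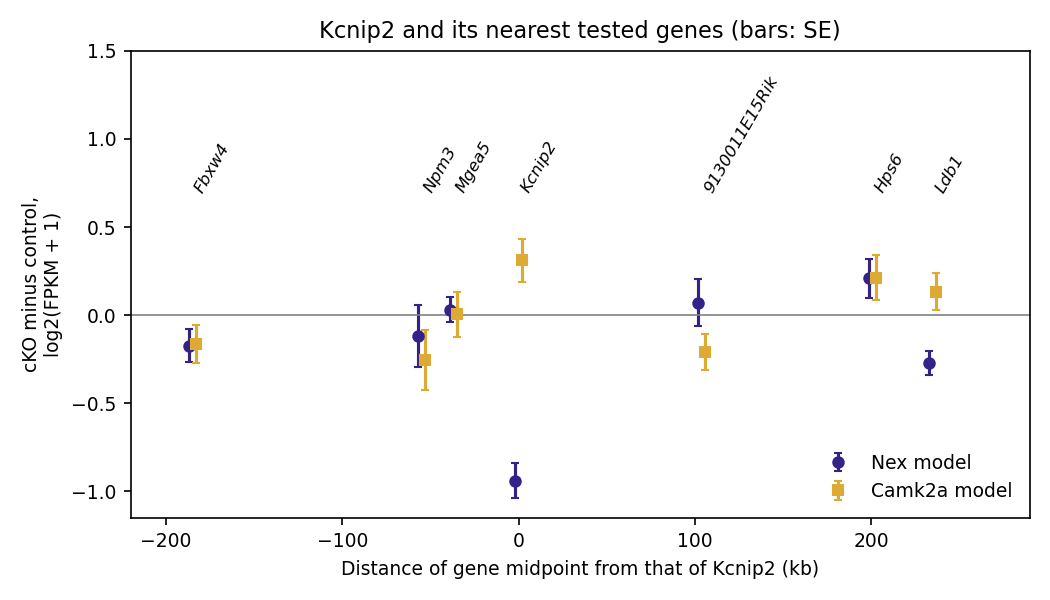
log2 change (cKO minus control, on log2(FPKM + 1)) with bars of 1 SE for Kcnip2 and 6 neighbouring genes in the Nex model (circles) and the Camk2a model (squares), placed by the distance of each gene's midpoint from that of Kcnip2 in kb. Kcnip2 is at -0.94 (Nex) and 0.31 (Camk2a), and the neighbours lie between -0.27 and 0.21.

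Each gene tested in both tables was also ranked by how closely its values followed those of Kcnip2 over the 10 libraries, as the root mean square difference of log2(FPKM + 1) after subtracting the mean of the controls of the same table. The 5 most similar genes of 10408 were Egfl7 (0.158), Trappc6a (0.186), Lamp5 (0.188), Dlk2 (0.19) and Ier3 (0.193), against a median of 0.536 over all genes. Egfl7, an endothelial secreted factor, was at 23.4 FPKM in Nex_Ctrl and 12.4 in Nex_cKO, and at 2.66 in Camk2a_Ctrl and 3.16 in Camk2a_cKO. Lamp5, a marker of upper cortical layers and of a class of interneurons, was at 179 and 109 FPKM in the Nex groups and 95.1 and 98.3 in the Camk2a groups. Dlk2, a relative of the Notch ligand family, was at 26.2 and 15.3 FPKM and at 7.49 and 10.8. The other Kv4 members were not near the top: their differences from Kcnip2 ran from 0.487 for Kcnd2 to 0.669 for Kcnd3, on either side of the median gene. These points share libraries and tables, and the ranking is a description without a test.

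Markers of cell types moved beside Kcnip2 and are given with it. The summed FPKM of 5 endothelial markers was 50.3 to 64.5 in Nex_Ctrl and 34.6 to 44.5 in Nex_cKO, and 30.3 to 30.7 in Camk2a_Ctrl and 39.3 to 40.4 in Camk2a_cKO, with 1 of 5, Cldn5, falling in the Nex model. The summed level of 5 markers of layers 2 to 4 was 256 to 265 in Nex_Ctrl and 181 to 185 in Nex_cKO, and 157 to 160 in Camk2a_Ctrl and 166 to 169 in Camk2a_cKO, with Rorb and Lamp5 falling in the Nex model. Most of this sum was Lamp5, 1 of the 5 genes picked above as most like Kcnip2. Its means were 179 and 109 FPKM in the Nex groups and 95.1 and 98.3 in the Camk2a groups. Both sums, like Kcnip2, did not overlap between groups and lay on opposite sides of the controls in the 2 models. The same held for red blood cell genes, of which 1 of 5 was in the Nex table, at 0.97 to 2.18 FPKM and 0.377 to 0.72, and of which all 5 were in the Camk2a table, summing to 80.4 to 101 and 124 to 159.

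Other lists differed between the groups as well. For background, 4.47% of all genes rose and 4.06% fell at the threshold in the Nex model, and 30.4% did not overlap. The sum of 7 glutamatergic markers was 3130 to 3380 in Nex_Ctrl and 2500 to 2840 in Nex_cKO, with Neurod6 and Tbr1 falling and Neurod2 rising. The sum of 5 layer 6 markers was 45.3 to 52.8 and 26.9 to 36.4 in the Nex groups, with Foxp2, Syt6 and Tle4 falling, and 31.6 to 33.1 and 29.6 to 29.8 in the Camk2a groups, lower in knockouts of both models. The sum of 6 oligodendrocyte markers was 1340 to 1460 in Nex_Ctrl and 1030 to 1250 in Nex_cKO, with none passing the test, and overlapped in the Camk2a model. Hippocampal markers went the other way, with 5 of 6 in the Nex table summing to 68.5 to 73.6 in Nex_Ctrl and 108 to 115 in Nex_cKO, where Wfs1 and Fibcd1 rose, and they overlapped in the Camk2a model. The sum of 10 striatal markers, which would show neighbouring striatum in the dissection, was 134 to 139 in Nex_Ctrl and 115 to 158 in Nex_cKO, and Six3 was at 0 in every Camk2a library. The sum of 12 GABAergic markers, 1030 to 1180 in Nex_Ctrl and 769 to 1190 in Nex_cKO, overlapped between groups, as did the Nex sums of layer 5, thalamic, astrocyte, oligodendrocyte precursor, microglial and pericyte markers. Some of these lists did not overlap in the Camk2a model, where 37.3% of all genes did not overlap. Knockout sums were lower for layer 5 (23.8 to 24.2 against 25.8 to 29.1) and thalamic markers (8.76 to 9.0 against 9.42 to 9.66). They were higher for oligodendrocyte precursor markers (64.7 to 64.9 against 59.3 to 64.1). The part of these lists in the levels of Kcnip2 was not tested.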

How the data were processed

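RNA of somatosensory cortex was measured in 10 libraries. The authors deposited FPKM values in 2 tables, 1 per model. Per the submitters' processing notes, cutadapt, STAR, Cufflinks 2.2.1 and DESeq2 were used, with genome builds mm10 and GRCm38. Neither their roles nor the use of strand is given in the sources used here.

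Of several rows with 1 name, that with the highest mean was used. In the 3-month table FPKM times the deposited gene length was whole reads for 100% of values within a tolerance of 0.1. Genes with an FPKM of at least 1 in 3 (Nex) or 2 (Camk2a) libraries were tested on log2(FPKM + 1) with limma 3.58.1 (R 4.3.3), moderated with an intensity trend. Each model was fitted alone and the difference in 1 fit of genes tested in both. The Benjamini-Hochberg adjustment ran over every gene in a fit, and 0.05 was the threshold. A pseudocount of 1 understates changes of low genes.

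The members and lists were chosen with earlier results of these data known. Named were all members, Nsd1 and up to 8 listed regulators past the threshold, with uncalled listed genes beside Pdyn, Cacna1i and the Dpp6 relatives. The 3 nearest tested genes on either side of Kcnip2 and the 5 genes most like it were also named. Values of Kcnip2 chose the set and have no p-value. Fits were tested on simulated data. The alternatives were another pseudocount, filter, scaling or variance model, a replicate block, voom on recovered reads, and each library left out.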

Additional observations from a re-analysis of the deposited data

Results flagged for a closer look

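Kcnip2 was flagged because its change differed between the models. The change in the Nex model minus that in the Camk2a model was -1.25 on the log2 scale, with all 3 Nex_cKO libraries below and both Camk2a_cKO libraries above their controls. The gene was chosen for this difference, which was not tested.

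Prkca was flagged because its change differed between the models by limma's test of the difference itself, at -0.73 on the log2 scale (adjusted p = 0.0342). It was lower in 3 of 3 Nex_cKO libraries than in any control, and the Camk2a groups overlapped. The adjusted p was 0.0529 with a filter of FPKM 5. Age, Cre driver, sex-linked expression and table differ together between the models and cannot be told apart.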

How the results depend on the processing

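Kcnip2 kept its direction in all 45 alternative values, which reuse the libraries that chose it and so are a description, not support. Of 355 values of the other 8 members, none passed the threshold (lowest adjusted p 0.14) and 34 turned sign. Quantile normalization gave -0.0222 for Kcnd1 in the Camk2a model and differences between models of 0.0354 for Kcnip1 and 0.0106 for Kcnd3. Median ratio rescaling gave differences of 0.0203 for Kcnip1 and 0.0037 for Kcnd3. limma voom on recovered reads gave 0.0209 for Kcnip3, 0.0075 for Kcnip4 and 0.0384 for Dpp6 in the Camk2a model. The cause was not tested.

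With 1 library left out, where a lone library in a group is assumed to vary like the others, changes ran in the Nex model from -0.0216 to 0.18 (Kcnip1), -0.12 to 0.24 (Kcnip3), -0.12 to 0.13 (Kcnip4) and -0.022 to 0.14 (Dpp10). In the Camk2a model they ran from -0.28 to 0.22 (Kcnip3), -0.10 to 0.13 (Kcnd1), -0.17 to 0.58 (Kcnd3) and -0.11 to 0.072 (Dpp6). The differences between models ran from -0.12 to 0.085 (Kcnip1), -0.17 to 0.33 (Kcnip3), -0.0728 to 0.18 (Kcnip4), -0.0386 to 0.19 (Kcnd1), -0.13 to 0.0031 (Kcnd2), -0.40 to 0.35 (Kcnd3) and -0.0115 to 0.17 (Dpp6).

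The 8 regulators that passed in the Nex model became 5 with a filter of FPKM 5, which leaves fewer genes to test, and 5 to 11 with 1 library left out: 5 without Nex_Ctrl replicate 1, Nex_Ctrl replicate 3 or Nex_cKO replicate 1, and 11 without Nex_cKO replicate 2. Ldb1 also lost its call with a filter of FPKM 5, quantile normalization, median ratio rescaling, no intensity trend and the replicate block. The filter of FPKM 5 left Kcnd1, and Kcnip1 in the Camk2a model, untested.

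Same-numbered libraries had correlations of 0.017, -0.104 and -0.096 in Nex pairs and 0.05 in Camk2a pairs, on deviations from each group's mean. Such deviations sum to 0 within a group, so with few libraries the correlations are not independent. In the Camk2a model every pair could give only 1 size of correlation, 0.05 or -0.05. Whether the numbers pair the libraries therefore cannot be decided from these values. With the replicate number as a block, 0 of the 8 members passed in either model or in the difference, and 6 of 39 regulators passed in the Nex model, where Kcnab2 (adjusted p = 0.106 in limma) and Dpp9 (0.065) lost their calls, as did the difference in Prkca (0.062). Depth limits the rarest member, Kcnd1, which rested on 175 to 209 reads in the Camk2a libraries.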
